A study of Mus musculus with 6 samples.

Results

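The insulin-like growth factor (IGF) binding proteins Igfbp1 to Igfbp7 and the IGF receptors Igf1r and Igf2r were described here as one family of 9 genes, 7 binding proteins and 2 receptors, among the 56305 genes measured in mouse liver. The genes were chosen by name: their Ensembl identifiers were matched to GRCm38 gene symbols, and all 9 were found. The livers came from male mice of 5 weeks, fed ad libitum and collected at ZT6 (6 h after lights on), with 3 WT and 3 Vps15LKO animals and 1 RNA library per liver. Vps15LKO stands for AlbCre+;Vps15 f/f mice, in which Cre recombinase driven by the albumin promoter deletes Vps15, the regulatory subunit of the class 3 PI3K complex, in the liver. The WT animals are labelled only by that name, and whether they carried the floxed allele or Cre is not given in the sources used here. The comparison asked how liver transcripts differ when Vps15 is lost. Pik3r4, the gene of Vps15, was read at 508, 573 and 460 normalized counts in WT, against 341, 362 and 355 in Vps15LKO. It was lower in Vps15LKO (log2 fold change -0.54, SE 0.11, limma adjusted p = 0.0021) by the authors' normalization, and its value was 0.19 when libraries were set to an equal total of reads.

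IGF1 and IGF2 are growth factors that act through the receptor tyrosine kinase IGF1R, and liver is the main source of circulating IGF1. In blood and tissue fluid most IGF is held by binding proteins, which prolong its life and control its access to the receptor. IGFBP3 and IGFBP5 form a ternary complex with IGF and the acid labile subunit, whereas IGFBP1 is a small, fast changing carrier made by hepatocytes and held down by insulin. IGF2R, the cation-independent mannose 6-phosphate receptor, clears IGF2 and carries newly made lysosomal enzymes to endosomes.

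A pair of promoter motifs occurred in members of the family, in Igfbp1, Igfbp2 and Igf2r, and only windows that held a motif are printed. The transcripts of these genes changed by the authors' normalization, but the fall of Igfbp2 depended on the scaling. The windows run from 250 to 1 bases before the RefSeq transcript start (GRCm38.p6), 5′ to 3′ on the strand of the gene, and the capitals mark the motif. For Igfbp2 (chr1:72824230-72824479, plus strand) and Igf2r (chr17:12769707-12769956, minus strand) the motif is the E-box CACGTG, the element bound by Bmal1–Clock. For Igfbp1 (chr11:7197537-7197786, plus strand) it is CAAAACA, the core of the insulin response element known from this promoter.
Igfbp1: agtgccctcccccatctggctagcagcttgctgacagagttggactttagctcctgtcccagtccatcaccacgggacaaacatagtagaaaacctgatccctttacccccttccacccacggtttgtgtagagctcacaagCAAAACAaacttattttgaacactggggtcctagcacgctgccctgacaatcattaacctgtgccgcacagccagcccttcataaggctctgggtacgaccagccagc
Igfbp2: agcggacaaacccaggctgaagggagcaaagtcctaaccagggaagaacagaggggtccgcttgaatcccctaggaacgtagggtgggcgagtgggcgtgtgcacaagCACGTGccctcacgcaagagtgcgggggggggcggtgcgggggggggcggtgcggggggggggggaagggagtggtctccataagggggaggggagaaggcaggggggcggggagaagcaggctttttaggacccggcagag
Igf2r: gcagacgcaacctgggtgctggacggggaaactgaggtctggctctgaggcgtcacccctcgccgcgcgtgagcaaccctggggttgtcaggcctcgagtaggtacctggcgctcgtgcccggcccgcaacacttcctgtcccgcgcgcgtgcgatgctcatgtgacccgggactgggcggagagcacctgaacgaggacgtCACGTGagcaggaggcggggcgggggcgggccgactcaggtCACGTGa
The motifs were searched on both strands in 300 bases, from 250 before to 50 after each start. CACGTG was found in 2 of 9 members, 1 time in Igfbp2 (142 to 137 bases before the start) and 2 times in Igf2r (48 to 43 and 7 to 2 bases before it), and in 7.15% of 32851 RefSeq promoters of mouse. CAAAACA was found in 1 member, Igfbp1 (108 to 102 bases before the start), and in 6.28% of all promoters. GTAAACA, a FoxO motif, and TTGCATCA, an ATF4 motif, were found in 0 of 9 members and in 3.65% and 0.895% of all promoters. RefSeq gives Igfbp2 a further start, and its window held none of these motifs. None of the searched motifs overlap one another in these windows. A match is a description of letters, and no binding was measured at these positions here.

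Values are the normalized counts deposited by the authors, which are reads divided by a size factor of each library. All 9 members passed the filter of at least 20 normalized counts in 3 of 6 livers, and none passed only through its Vps15LKO values. That phrase is used here for genes with no WT liver at 20 normalized counts or more. A gene was called when limma on log2(normalized count + 1) gave a Benjamini-Hochberg adjusted p under 0.05 over the 15430 tested genes, with a fold of at least 1.2. By this rule 6 members were higher in Vps15LKO, 2 were lower and 1 was not called. Of all tested genes, 66.5% were called, 33.5% higher and 33.0% lower. The values of the genotypes did not overlap for 8 of 9 members, against 73.2% of all tested genes. The share of members called is therefore to be read against a comparison in which most genes were called. An exact permutation test of a single gene cannot go below 0.1 with 3 livers against 3. Libraries held between 16137093 and 18110223 reads on genes. The authors' size factors were 0.742 to 0.801 in WT and 1.23 to 1.41 in Vps15LKO, so 1 read counted for 1.25 to 1.35 units of normalized count in WT and for 0.707 to 0.81 in Vps15LKO. Libraries set to an equal total of reads instead moved the median over the tested genes from -0.02 to 0.70 on the log2 scale, and this second value is given wherever it altered the call of a member.

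Igfbp1 had the largest change of the family. WT livers gave 1900, 939 and 886 normalized counts, against 14701, 11261 and 11218 in Vps15LKO. Each Vps15LKO liver stood far above every WT liver, and among WT livers replicate 1 was higher than the other two. The mean rose from 1242 ± 571 to 12393 ± 1999 (SD, n = 3), a 9.98-fold difference. The log2 fold change was 3.40 (95% interval 2.77 to 4.02, SE 0.27, limma adjusted p = 1.4e-05), and 564 of the tested genes had a larger rise. Igfbp1 lies at chr11:7197782-7202546 on the plus strand.

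Igfbp3, the carrier of the ternary complex, lies beside Igfbp1 on chromosome 11 (chr11:7206086-7213923, minus strand), with 3539 bases and no other annotated gene between the pair. Its level was 598, 741 and 802 normalized counts in WT and 957, 958 and 1368 in Vps15LKO. All Vps15LKO livers were above all WT livers, with replicate 3 the highest. Igfbp3 rose from 714 ± 105 to 1094 ± 237 (SD, n = 3; log2 fold change 0.61, SE 0.17, limma adjusted p = 0.011). The neighbours moved in the same direction by unequal amounts, and the ratio of Igfbp1 to Igfbp3 per kb of exon was 3.80 on average in WT (2.27 to 6.52) and 24.2 in Vps15LKO (16.8 to 31.5), without overlap.

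Igfbp7, a secreted protein of low affinity for IGF that is abundant around vessels, was 2246, 1976 and 1907 normalized counts in WT and 5365, 5665 and 7111 in Vps15LKO. The ranges stood well apart. It rose from 2043 ± 179 to 6047 ± 933 (SD, n = 3; log2 fold change 1.56, 95% interval 1.26 to 1.86, SE 0.13, limma adjusted p = 1.8e-05). Igfbp7 (chr5:77349240-77408041, minus strand) shares 85 bases of exon with Polr2b on the other strand. Polr2b was not called (log2 fold change 0.05, limma adjusted p = 0.65), at 1105, 1199 and 1132 normalized counts in WT and 1100, 1147 and 1332 in Vps15LKO. The antisense gene Gm34648 within its span had 0.81 normalized counts in 1 liver and 0 in the others. The library protocol marks strand, but whether counting used it is not given in the sources used here.

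Igfbp6, which prefers IGF2 over IGF1, was the least abundant binding protein. It was read at 49.1, 50.0 and 36.4 normalized counts in WT and at 79.4, 63.2 and 93.4 in Vps15LKO, from 27 to 40 reads per WT library and 78 to 132 per Vps15LKO library. The groups did not overlap, but the lowest Vps15LKO liver was close to the highest WT liver. Igfbp6 (chr15:102144362-102149511, plus strand) rose from 45.1 ± 7.59 to 78.7 ± 15.1 (SD, n = 3; log2 fold change 0.78, SE 0.21, limma adjusted p = 0.011), and with quantile normalization it was not called (0.21, adjusted p = 0.40).

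Igfbp4 and Igfbp2, the most abundant binding protein transcripts of WT liver, fell. Igfbp4, which restrains IGF until it is cut by the protease PAPP-A, was 32957, 31505 and 33855 normalized counts in WT and 10149, 12853 and 8896 in Vps15LKO. WT livers lay close together, and each was above every Vps15LKO liver. Igfbp4 (chr11:99041244-99054392, plus strand) was 3.08-fold lower (32772 ± 1186 to 10633 ± 2022, SD, n = 3; log2 fold change -1.64, 95% interval -2.04 to -1.24, SE 0.18, limma adjusted p = 6.5e-05). With equal totals of reads it was also lower (-0.91, limma adjusted p = 0.00018), as it was after quantile normalization by a smaller amount (-0.46, limma adjusted p = 0.011).

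Igfbp2, a carrier of both IGFs of which liver is a major source, was 14254, 13585 and 18888 normalized counts in WT. It was 7514, 7501 and 7496 in Vps15LKO, nearly equal values in the 3 livers. Its mean went from 15576 ± 2888 to 7503 ± 9.24 (SD, n = 3), with a log2 fold change of -1.04 (95% interval -1.39 to -0.69, SE 0.15, limma adjusted p = 0.00037). This call depended on the scaling. Set to equal totals of reads the value was -0.31 (limma adjusted p = 0.094), and after quantile normalization it was 0.02 (adjusted p = 0.90), both not called. Recovered reads of Igfbp2 numbered 10750, 10876 and 14012 in WT and 9839, 9256 and 10598 in Vps15LKO.

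Igfbp5, the other carrier of the ternary complex, lies tail to tail with Igfbp2 on chromosome 1. Igfbp2 spans chr1:72824503-72852474 on the plus strand and Igfbp5 chr1:72857932-72874884 on the minus strand, with 5457 bases and no annotated gene between them. Igfbp5 was 528, 728 and 493 normalized counts in WT and 486, 591 and 516 in Vps15LKO. The genotypes overlapped, and the gene was not called (583 ± 127 against 531 ± 53.8, SD, n = 3; log2 fold change -0.12, 95% interval -0.47 to 0.24, limma adjusted p = 0.52). Its direction rested on the scaling: with equal totals of reads it was called higher (0.61, limma adjusted p = 0.0043).

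**Figure D1:**
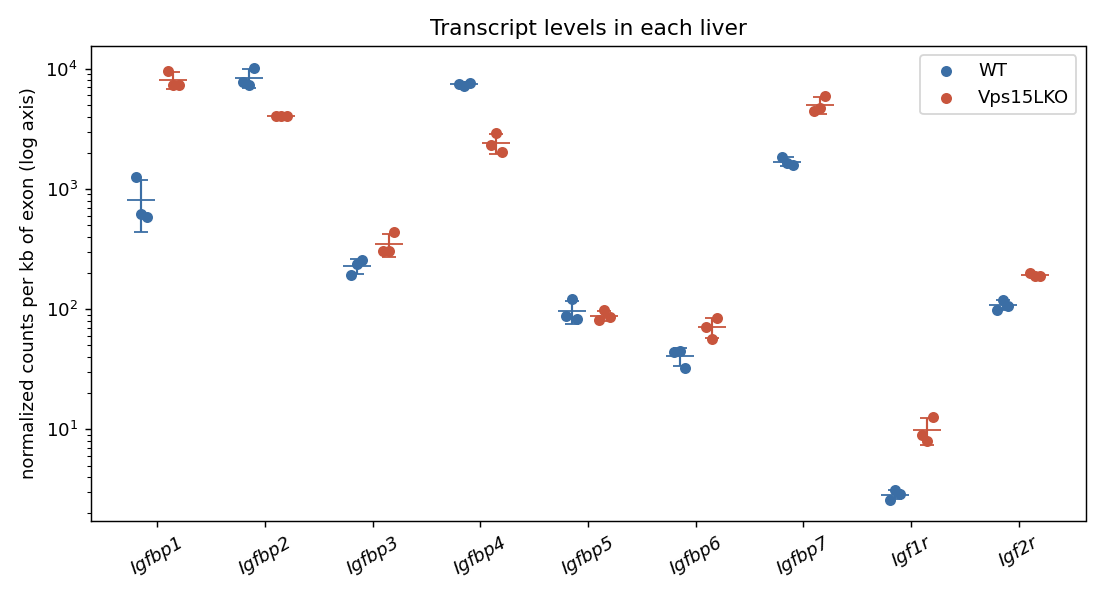
Each point is 1 liver (blue WT, red Vps15LKO), bars give the mean ± SD of 3 livers, and the log axis shows normalized counts per kb of merged exon. Igfbp1 goes from a mean of 814 to 8127, Igfbp4 from 7421 to 2408 and Igf1r from 2.87 to 9.96, while the points of Igfbp5 overlap.

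Levels of different genes were compared per kb of merged GENCODE exon. In WT the order was Igfbp2 (mean 8433 normalized counts per kb), Igfbp4 (7421), Igfbp7 (1690), Igfbp1 (814), Igfbp3 (228), Igf2r (108), Igfbp5 (97.1), Igfbp6 (40.6) and Igf1r (2.87). The ranges of Igfbp2 and Igfbp4 overlapped, as did those of Igf2r and Igfbp5, and the other neighbours stood apart. In Vps15LKO the order was Igfbp1 (8127), Igfbp7 (5002), Igfbp2 (4062), Igfbp4 (2408), Igfbp3 (350), Igf2r (193), Igfbp5 (88.4), Igfbp6 (70.7) and Igf1r (9.96), and of these neighbours only Igfbp5 and Igfbp6 overlapped. The first 4 places thus held the same genes in another order, and Igfbp1 went from the fourth to the first. These orders rest on the merged exon length, which was 4416 bases for Igfbp4 and 1847 for Igfbp2. Not divided by length, Igfbp4 was above Igfbp2 in every liver of both genotypes.

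Summed over Igfbp1 to Igfbp7, the level per kb was 18607, 17143 and 20423 in WT and 20902, 19502 and 19917 in Vps15LKO, with overlapping ranges (18724 ± 1643 against 20107 ± 719, SD, n = 3). Not divided by length, the sum was lower in Vps15LKO without overlap, at 36698 to 39252 normalized counts against 49524 to 56868 in WT. With libraries set to an equal total of reads (RPM) the direction turned, again without overlap: the undivided sum was 2190 to 2614 RPM in WT and 2653 to 2875 in Vps15LKO, and per kb it was 758 to 939 and 1330 to 1560. No direction of the summed level is therefore given. The composition of this sum is the same under any size factor, since a factor scales all 7 genes of a library alike. Igfbp1 made up 6.70%, 3.59% and 2.84% of it in WT, against 46.1%, 37.9% and 36.9% in Vps15LKO. Igfbp2 went from 44.8% ± 4.61 to 20.2% ± 0.694 and Igfbp4 from 39.8% ± 2.06 to 12.0% ± 2.56 (SD, n = 3). Igfbp7 rose from 9.08% ± 1.2 to 24.9% ± 4.22. These 4 shares did not overlap between genotypes. The 3 minor members Igfbp3, Igfbp5 and Igfbp6 stayed at a mean of 1.74% or less each in both genotypes. Without division by length Igfbp4 was the largest share in WT (62.0%) and Igfbp1 in Vps15LKO on average (32.3%, against 27.7% for Igfbp4), but in Vps15LKO replicate 2 Igfbp4 (33.0%) exceeded Igfbp1 (29.0%).

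**Figure D2:**
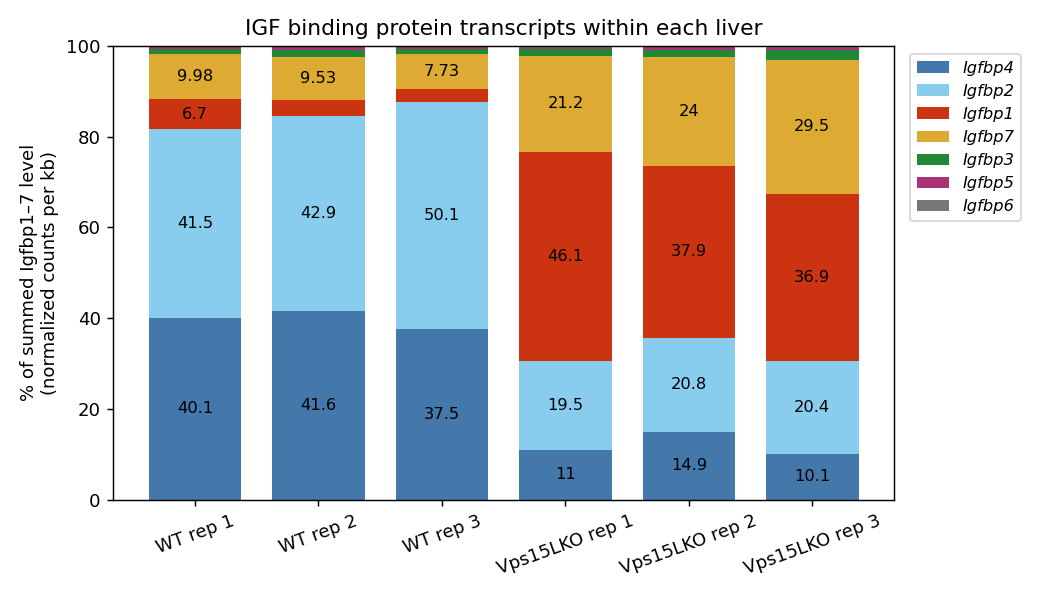
Stacked bars give, for each of the 6 livers, the percent of the summed Igfbp1 to Igfbp7 level (normalized counts per kb) taken by each gene. Igfbp2 and Igfbp4 fill most of each WT bar, whereas Igfbp1 and Igfbp7 together take 67.3%, 61.9% and 66.4% of the Vps15LKO bars.

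Both receptors were higher in Vps15LKO. Igf1r, the signalling receptor of IGF1 and IGF2, is scarce in liver: it was read at 43.8, 52.5 and 48.5 normalized counts in WT and at 152, 135 and 214 in Vps15LKO, from 33 to 42 and from 167 to 303 reads per library. Every Vps15LKO liver was above every WT liver, with Vps15LKO replicate 3 the highest. Igf1r (chr7:67952827-68233668, plus strand) rose 3.47-fold, from 48.2 ± 4.36 to 167 ± 41.6 (SD, n = 3; log2 fold change 1.75, 95% interval 1.30 to 2.20, SE 0.20, limma adjusted p = 8.3e-05).

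Insr, the insulin receptor and closest relative of Igf1r, went the other way by the authors' normalization. It was 1962, 2301 and 1785 normalized counts in WT and 1291, 1184 and 1087 in Vps15LKO (log2 fold change -0.76, SE 0.12, limma adjusted p = 0.00050), and its value with equal totals of reads was -0.03. The ratio of Insr to Igf1r per kb, which no size factor alters, was 54.8, 53.6 and 44.9 in WT and 10.4, 10.7 and 6.20 in Vps15LKO. Insr remained the more abundant of the pair in all 6 livers, by a smaller margin in every Vps15LKO liver.

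Igf2r was 920, 1117 and 983 normalized counts in WT and 1868, 1748 and 1764 in Vps15LKO. The groups stood apart with little spread, and the mean rose from 1007 ± 100 to 1793 ± 65.1 (SD, n = 3; log2 fold change 0.84, 95% interval 0.61 to 1.06, SE 0.10, limma adjusted p = 0.00010). Igf2r (chr17:12682406-12769664, minus strand) is overlapped over 28354 bases, with no shared exon, by Airn, the antisense RNA known from imprinting of this locus. Airn was 7.96, 8.74 and 9.44 normalized counts in WT and 57.3, 41.3 and 41.7 in Vps15LKO. It passed the filter only through its Vps15LKO values, so no test of it is given, and its normalized counts were far below those of Igf2r in all 6 livers.

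M6pr, the smaller mannose 6-phosphate receptor, was named after its values were seen: it rose from 1986 ± 93.5 to 2619 ± 77.1 (SD, n = 3; log2 fold change 0.40, limma adjusted p = 0.0032). The ratio of Igf2r to M6pr per kb was 0.203, 0.245 and 0.234 in WT and 0.331, 0.294 and 0.297 in Vps15LKO, without overlap. Of 10 genes of the mannose 6-phosphate sorting route, all tested, 3 were called higher and 1 lower, with a median log2 fold change of 0.06 beside -0.02 for all tested genes. Gnptab, a catalytic subunit precursor of the enzyme that starts the mannose 6-phosphate tag, rose by 0.64 (limma adjusted p = 0.0042) and Gnptg, its gamma subunit, fell by 0.69 (limma adjusted p = 0.00017) on the log2 scale. Vps35, Vps26a and Vps29 of the retromer, which returns the receptor to the Golgi, were not called, at 0.03, -0.01 and 0.08. With equal totals of reads 9 of the 10 were called higher and 0 lower. Of the 15430 tested genes, 10300 were then called higher and 1712 lower.

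**Figure D3:**
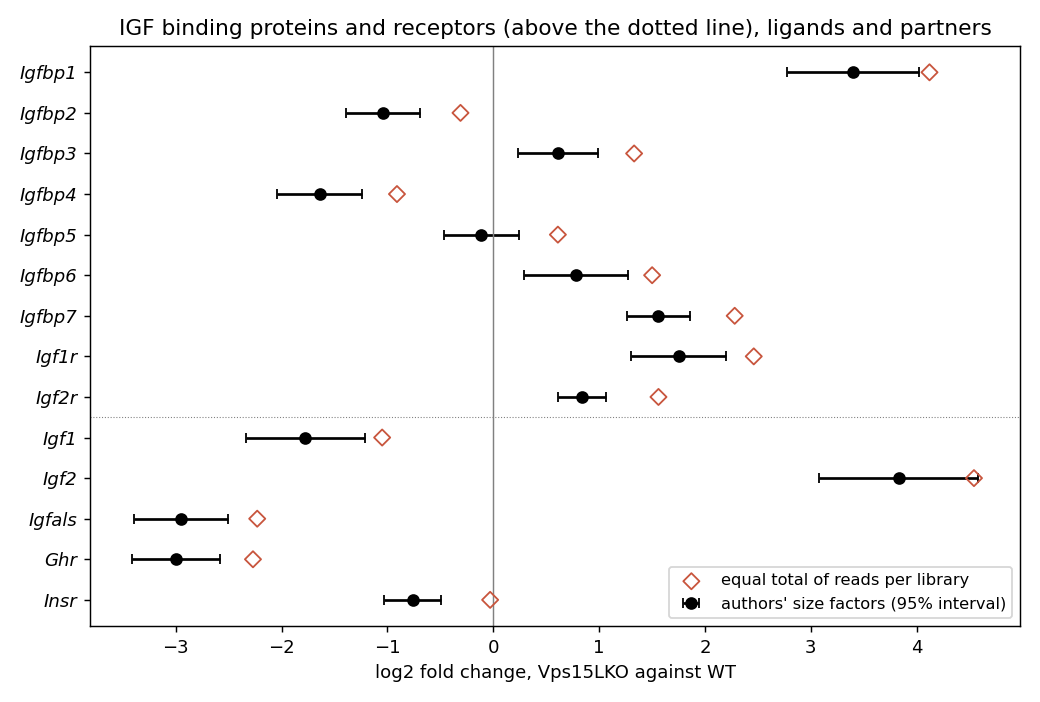
Filled points with bars give the limma log2 fold change of Vps15LKO against WT and its 95% interval (3 livers each), and open diamonds the same value with libraries set to an equal total of reads. The diamonds lie to the right of every point, so that Igfbp2 and Insr come nearer to 0 and Igfbp5 moves above it, whereas Igfbp1, Igfbp7, Igf1r and Igf2r are right of 0 and Igfbp4 left of 0 on both scales.

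The ligands of these proteins changed in opposite directions. Igf1 was 13108, 12131 and 15397 normalized counts in WT and 3937, 5698 and 2715 in Vps15LKO, and fell by 1.78 on the log2 scale (SE 0.25, limma adjusted p = 0.00026). Igf2, a fetal growth factor that is nearly silent in adult mouse liver, had 10 to 26 reads per WT library. It was 13.3, 32.5 and 28.3 in WT and 348, 264 and 436 in Vps15LKO (log2 fold change 3.83, SE 0.33, limma adjusted p = 1.9e-05). WT replicate 1 was below the 20 normalized counts of the filter, so Igf2 met it in 3 livers only with Vps15LKO values. The test of Igf2 is to be read with that limit. The ranges of both genes stood apart, and the ratio of Igf1 to Igf2 per kb went from 571, 216 and 314 to 6.53, 12.5 and 3.59. Igfals, the acid labile subunit, fell from 3330 ± 377 to 439 ± 132 and Ghr, the growth hormone receptor that drives Igf1 and Igfals, from 11724 ± 570 to 1502 ± 410 (SD, n = 3; log2 fold changes -2.95 and -3.00, limma adjusted p = 5.3e-06 and 3.6e-06). All 4 genes of the ligand and ternary complex list were thus called, 1 higher and 3 lower, also with equal totals of reads. The higher call is that of Igf2 and carries the limit given above. By the authors' normalization 66.5% of all tested genes were called. The summed level of Igfbp1 to Igfbp7 over that of Igf1, per kb, was 14.1, 14 and 13.1 in WT and 52.6, 33.9 and 72.7 in Vps15LKO, and Igfbp1 alone went from 0.941, 0.503 and 0.374 to 24.3, 12.8 and 26.8 relative to Igf1.

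Of 5 listed proteases that cut IGF binding proteins, or inhibitors of those proteases, 4 were tested and all 4 were called higher. Pappa, Stc1 and Stc2 passed the filter only through the Vps15LKO livers, so their calls are no support for a direction of the list. Htra1, a secreted serine protease that cuts IGFBPs, was 46.4, 46.2 and 45.8 normalized counts in WT and 144, 207 and 228 in Vps15LKO (log2 fold change 2.01, SE 0.19, limma adjusted p = 3.3e-05). Named after their values were seen, Pappa, the protease of Igfbp4, had 1 to 5 reads per WT library and 55 to 95 per Vps15LKO library, and its inhibitors Stc1 and Stc2 had 0 to 2 and 4 to 6 reads in WT against 38 to 79 and 54 to 104 in Vps15LKO. Pappa2 had at most 2 reads in any library.

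Among 7 receptor partners, 6 were tested, 1 was called higher and 3 lower. Grb10, an adaptor that restrains both the insulin and IGF1 receptors, rose from 77.1 ± 21.4 to 830 ± 230 normalized counts (SD, n = 3; log2 fold change 3.41, SE 0.23, limma adjusted p = 6.9e-06). Grb14, the related adaptor that is abundant in liver, fell from 1618 ± 141 to 913 ± 120 (log2 fold change -0.83, limma adjusted p = 0.00031). With equal totals of reads 3 of these partners were called higher and 0 lower, and Grb14 had -0.10. By that scaling 10300 of the 15430 tested genes were called higher and 1712 lower. Of 9 relatives that carry an IGFBP domain, 6 were tested and 5 were called higher, 2 of them passing the filter only through Vps15LKO. By the authors' normalization 33.5% of all tested genes were called higher. Ccn5, a matricellular protein of that group, went from 2.65, 6.25 and 14.8 to 1055, 899 and 1318 normalized counts, and is one of the 2 that passed only through Vps15LKO.

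Of 8 transcription factors known to act on Igfbp genes in liver, 0 were called higher and 6 lower, with 2 not called. Of all tested genes, 33.5% were called higher and 33.0% lower. Ppara, the fatty acid sensing receptor, fell most among them, from 2309 ± 311 to 590 ± 149 normalized counts (SD, n = 3; log2 fold change -1.99, limma adjusted p = 3.5e-05). With equal totals of reads 2 of the 8 were called higher and 2 lower, beside 10300 and 1712 of the 15430 tested genes. Over all 43 genes of these lists, 38 were tested, 14 were called higher, 13 lower and 11 were not called. These counts are to be read beside the same 33.5% and 33.0% of all tested genes. The median log2 fold change of the 38 was 0.04 beside -0.02 for all tested genes. Of the 38, 5 passed the filter only through Vps15LKO. Lists with 0 genes called in a direction had 0 there by edgeR, DESeq2 and limma voom as well.

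The genes most like Igfbp1 over the 6 livers, by the Euclidean distance of log2(normalized count + 1) from its WT mean, were Hpgds (distance 0.24), Procr (0.40) and Rin1 (0.40). Their WT means were 22.7, 18.4 and 6.57 normalized counts, and Rin1 passed the filter only through Vps15LKO. Nearest to Igfbp4 were Masp2 (0.08), Nr1h4 (0.12) and Scrn3 (0.12). These genes were chosen for their likeness in pattern, so their changes are no separate result. Nr1h4, the bile acid receptor, is also on the list of transcription factors.

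Markers of liver cell types moved with the genotype, and in these bulk samples fewer cells of a type and less RNA per cell cannot be told apart. Summed over 10 hepatocyte markers the level ranged over 2898859 to 3398375 normalized counts in WT livers and was 804465 to 1229598 in Vps15LKO. Most of each sum was Alb. Of the 10, 9 were called lower and 0 higher, with a median log2 fold change of -2.25. The tenth, Alb, had -1.48 and was not called (limma adjusted p = 0.37), whereas limma without a trend gave 0.00046. Apoa1 fell from 223107 ± 16158 to 88096 ± 10996 (log2 fold change -1.35, limma adjusted p = 0.012). Stellate cell and fibroblast markers, by contrast, were called higher for 11 of 12 and lower for 1, with sums of 11585 to 12219 in WT and 34213 to 38878 in Vps15LKO and a median log2 fold change of 1.31. Dcn rose from 3583 ± 394 to 6877 ± 133 normalized counts (0.95) and Ecm1 fell from 3853 ± 361 to 2695 ± 217 (-0.51), both as limma log2 fold changes, with 0.21 for Ecm1 at equal totals of reads. Kupffer cell and macrophage markers were called higher for 10 of 12 and lower for 0 (sums of 9573 to 11183 and 32451 to 36070, median 1.46), and Cd5l and Csf1r had log2 fold changes of 1.39 and 1.45.

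Cholangiocyte markers were tested for 9 of 10, and all 9 were called higher, 1 of them passing only through Vps15LKO. Their sums were 1441 to 1592 in WT and 12783 to 24405 in Vps15LKO, and most of the Vps15LKO sums was Spp1 (log2 fold change 4.69). Without Spp1, a choice made after seeing the data, the sums were 948 to 1009 in WT and 2380 to 3909 in Vps15LKO. Endothelial markers were called higher for 4 of 12 and lower for 7, against 4 lower by edgeR, 5 by limma voom and 6 by DESeq2 (sums of 13259 to 14583 and 10319 to 12763, median log2 fold change -0.32). Eng was not called (0.04) and Dnase1l3 fell by 1.13. Mesothelial markers, of which 4 of 7 were tested, had 0 calls in limma and overlapping sums of 210 to 244 and 209 to 271, with Krt14 at 0 in 5 of 6 livers and log2 fold changes of -0.42 for Upk3b and 0.43 for Gpm6a. Counts of 0 in the cell type lists were also 0 by edgeR, DESeq2 and limma voom, and at an unadjusted p under 0.05 limma gave 0 for each of them but the falling Kupffer cell markers, with 1. With equal totals of reads the calls were 7 higher and 1 lower for endothelial markers and 2 higher for mesothelial markers. Hepatocyte markers had 0 higher and 9 lower by that scaling. Of the 15430 tested genes, 10300 were then called higher and 1712 lower. The part of these cell types in the changes of the IGF binding proteins and receptors was not tested.

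**Figure D4:**
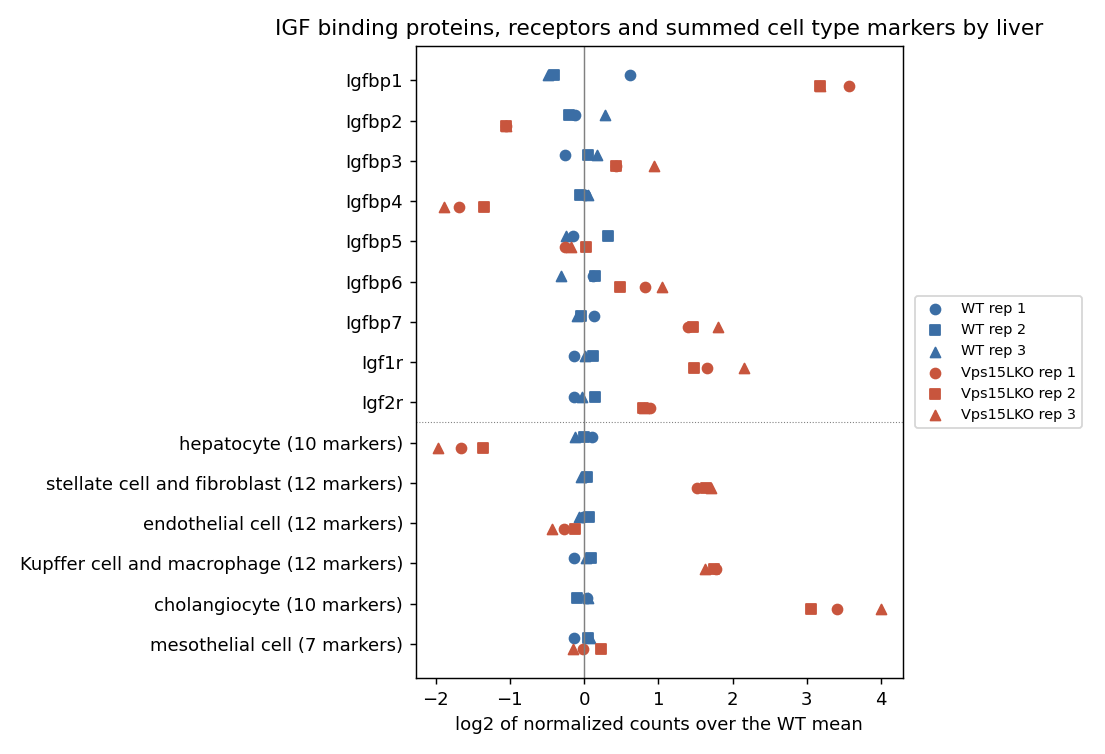
Each point is 1 liver (blue WT, red Vps15LKO, symbol shape for the replicate) and gives the log2 of its normalized counts over the WT mean, for each gene above the dotted line and for the summed markers of each cell type below it. Igfbp4 and the hepatocyte sum lie left of 0 in all Vps15LKO livers, Igfbp7, Igf1r and the stellate, Kupffer and cholangiocyte sums lie right of it, as does Igfbp1. Spp1 makes up most of the cholangiocyte sum in Vps15LKO.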

How the data were processed

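Total RNA from liver was enriched for polyA transcripts and sequenced from strand-marked libraries (DNBSEQ). Per the labels and the study's methods, the authors mapped reads to GRCm38 with HISAT2 and counted them per Ensembl gene with featureCounts. The deposited values are a normalized signal, reads divided by a DESeq2 size factor of each library, for 3 WT and 3 Vps15LKO livers. Dividing each column by its smallest step gave whole reads for 100% of values (within 0.1 of a read), so depth was known: 16137093 to 18110223 reads per library.

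Ensembl identifiers were matched to GENCODE M21 symbols (55227 of 56305). Genes with at least 20 normalized counts in 3 of 6 livers were tested with limma 3.58.1 in R 4.3.3 (lmFit and eBayes with a trend) on log2(normalized count + 1), so fold changes of low genes are understated. Calls needed a Benjamini-Hochberg adjusted p under 0.05 over 15430 genes and a fold of at least 1.2. On simulated data with 13754 genes tested, 93.5% of 200 changed genes were recovered and 8 other genes were called. The simulation gave every gene a dispersion of 0.02 and changed only those 200, whereas 66.5% of the real tested genes were called. It checks that the procedure runs and gives no error rate for the real comparison. edgeR 4.0.16, DESeq2 1.42.0 and limma voom were run on the recovered reads as alternatives, beside other scalings, pseudocounts and filters and the omission of each liver.

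The livers are separate animals. Samples with the same replicate number did not deviate together (correlations of -0.00992, -0.0114 and 0.0485), so the numbers were not taken to pair livers, and no pair of libraries agreed within sampling noise (chi-square per gene of 14 or more). Levels between genes were compared per kb of merged exon. Promoters came from RefSeq tables of GRCm38.p6, in which all 9 members matched. Protein sequences were not used here.

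The members and the gene lists were chosen with earlier results of these data known. Genes named were all members, Pik3r4, Igf1, Igf2, Igfals, Ghr and Insr. Added to these were the largest called rise and fall of each other list (with no overlap and a mean of at least 100 normalized counts), the 2 markers of each cell type with the highest normalized counts in WT (not divided by length), genes that overlap a member, and the 3 genes nearest in pattern to the most changed members. M6pr, Vps35, Vps26a, Vps29, Pappa, Pappa2, Stc1, Stc2 and Krt14 were named outside this rule, and some markers are not reported here by name.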

Additional observations from a re-analysis of the deposited data

How the results depend on the processing

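Over 19 alternative settings, 165 of 171 log2 fold changes of members kept their direction and their side of the threshold. Igfbp1 (3.20 to 4.14), Igfbp3 (0.43 to 1.33), Igfbp4 (-1.79 to -0.46), Igfbp7 (1.44 to 2.28), Igf1r (1.30 to 2.46) and Igf2r (0.77 to 1.56) were called in each of the 19, with adjusted p of at most 0.043. Igfbp2 was -0.31 with total-read scaling and 0.02 with quantile normalization. Igfbp6 was 0.21 with quantile normalization. Igfbp5, never called lower, was 0.61 with total-read scaling and 0.00 with upper-quartile scaling, and ran from -0.23 to 0.05 when a liver was left out, the latter without WT replicate 2. Total-read scaling moved the median of all tested genes by 0.72 and upper-quartile scaling by 0.12. Relative to that median Igfbp2 was -1.02 and Igfbp5 -0.10 under the authors' factors and under both of these scalings. This equality is no test, since a size factor shifts all genes of a library nearly alike. With quantile normalization, which does not, Igfbp2 was 0.13 and Igfbp5 0.06 relative to the median. Members called lower went from 2 to 1 with quantile normalization and with total-read scaling, and members called higher from 6 to 3 with a fold of at least 2. Of the 43 listed genes of the IGF axis, those called higher went from 14 to 8 when the filter was applied in every liver, which tests fewer genes, and to 25 with total-read scaling. Those called lower went from 13 to 5 with total-read scaling and to 5 with a fold of at least 2. All-gene counts went from 5163 higher and 5099 lower to 10300 and 1712 with total-read scaling. With the replicate number as a replicate block, 6 members were higher and 2 lower, and 5065 genes were higher and 4983 lower overall. It changed no call of a member. Low depth limits Igfbp6 and Igf1r in WT, at 27 to 42 reads per library.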
